A study of Mus musculus with 12 samples.

Results

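The genes described here are the WNT ligands, their receptors and their modulators. They were chosen by platform symbol: Wnt or Fzd followed by a number, Rspo1 to Rspo4, Dkk1 to Dkk4, Sfrp1 to Sfrp5, and Lrp5, Lrp6, Lgr4, Lgr5, Lgr6, Znrf3, Rnf43, Axin2 and Wif1. The rule found 50 genes, of which 49 had a row of their own among 30743 such genes on the array, and 43 of those passed the filter on low values that left 19675 genes for testing. To pass, a gene had to exceed the median of an array's rows on 3 or more of the 12 arrays. Rnf43 shared its row with the non-coding RNA 1110028F11Rik and was not tested. Fzd3, Lgr5, Rspo2, Sfrp4, Wnt3 and Wnt8b lay below the array median on all 12 arrays, and were not tested either.

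The study used Affymetrix arrays to profile endothelial cells from ear skin of C57BL6 mice that carried the Prox1-GFP reporter Tg(Prox1-EGFP)KY221Gsat, a transgene marking lymphatic endothelium. All 4 groups came from mice with this transgene, whose age the labels give both as adult and as 5 weeks, and had 3 arrays each. After enrichment on beads against PECAM1, an adhesion protein of all endothelium, cells positive for podoplanin (PDPN) and GFP were divided by LYVE1, a hyaluronan receptor of lymphatic capillaries, into cap LEC (LYVE1 high, capillaries), pre-col LEC (intermediate, pre-collecting vessels) and col LEC (low or negative, collecting vessels). The blood endothelial group (BEC) was PECAM1 positive and negative for podoplanin, GFP and LYVE1. The labels call the arrays of a group biological replicates without saying whether each was a single mouse or a pool, so p-values measure the spread between these samples. The groups are gates on protein level, not vessels cut out by position. Values are log2 of RMA-normalised intensity, on which a difference of 1 is a factor of 2.

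WNT proteins are lipid-modified secreted ligands that bind Frizzled receptors. Together with the co-receptors LRP5 and LRP6 they stabilise beta-catenin, which acts on target genes with TCF and LEF factors, and with other partners they steer cell polarity and movement. R-spondins amplify the signal by removing the E3 ligases ZNRF3 and RNF43 from the cell surface, which would otherwise degrade Frizzleds, while Dickkopf proteins, SFRPs and WIF1 hold it down outside the cell. In endothelium the pathway is known from vessel growth in the retina and brain and from the formation of lymphatic valves.

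The sorted groups carried the markers of their labels, and other cell types were also visible. The mean of 6 lymphatic endothelial genes was 11.86 to 12.68 on the LEC arrays and 7.11 to 8.24 on the BEC arrays, with the highest BEC value on BEC replicate 1. Of these 6, Prox1 (through its reporter), Pdpn and Lyve1 were used for the sort, so their separation was set by the gates. The others, Flt4, Reln and Mmrn1, were not used and also lay higher on every LEC array than on every BEC array. The mean of 5 blood endothelial genes was 11.54 to 11.68 in BEC and 7.46 to 8.0 in LEC. Mural cells are the contractile cells that wrap blood vessels. Their list of 10 genes had a mean of 9.21 to 9.49 in BEC, 6.77 to 7.38 across cap LEC, 7.1 to 8.2 across pre-col LEC and 6.89 to 6.95 across col LEC, and all 10 genes were called lower in LEC than in BEC. Fibroblast genes stood highest on pre-col LEC replicate 1 (8.21), followed by col LEC replicate 1 (7.43), against 6.49 to 7.08 elsewhere. Keratinocyte genes lay at 6.55 to 6.9 in BEC and 6.23 to 6.56 in LEC. The part of these cells in the differences from BEC given here was not tested. BEC replicate 3 stood apart for the WNT genes: 25 of the 43 tested had their highest value of all arrays there (58.1%), against 25.2% of all genes tested.

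**Figure D1:**
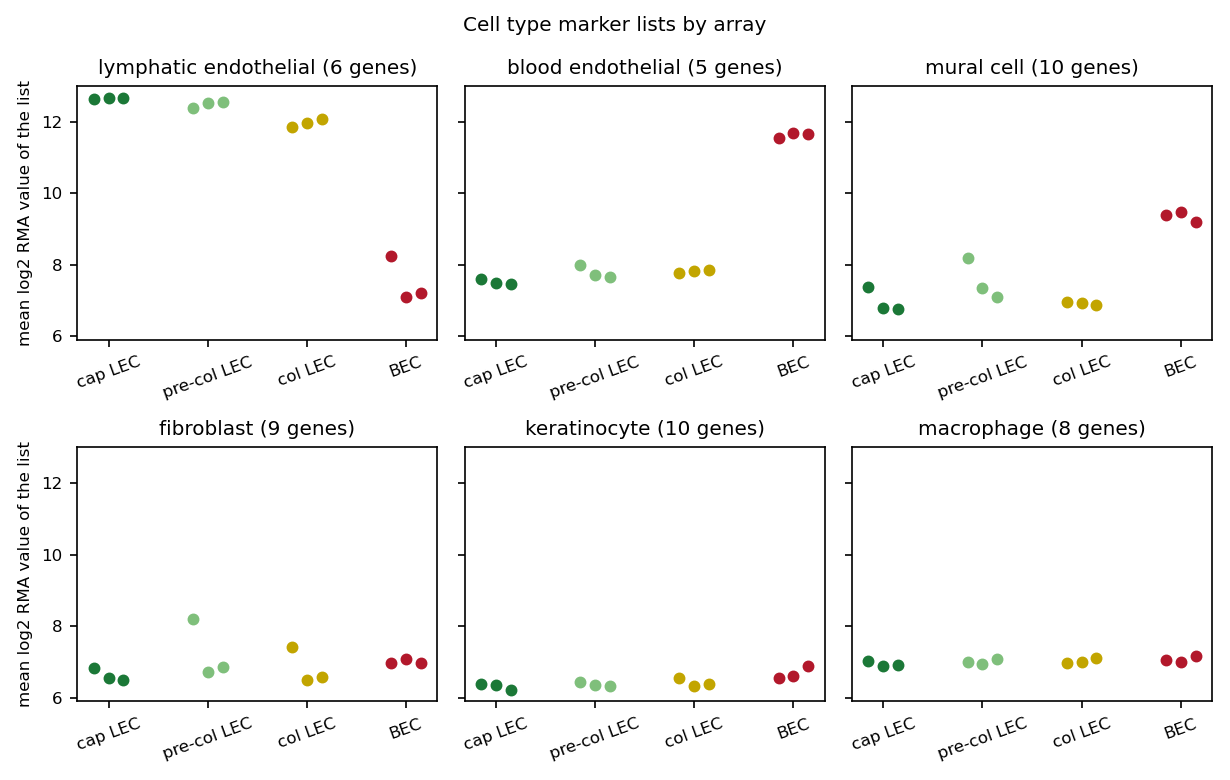
Mean log2 intensity of 6 cell type marker lists (vertical axis) on each of the 12 arrays, grouped as cap LEC, pre-col LEC, col LEC and BEC. Mural genes lay between 9.21 and 9.49 on the BEC arrays and between 6.77 and 8.2 on the LEC arrays, and fibroblast genes peaked at 8.21 on pre-col LEC replicate 1.

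Most calls of WNT genes separated lymphatic from blood endothelium, as did most calls over all genes tested. For the LEC mean against BEC, 23.3% of the WNT genes and 22.6% of all genes were called. Among the LEC groups the shares over all genes were 1.64% (col against cap), 0.0% (pre-col against cap) and 0.3% (col against pre-col). The R-spondin gene Rspo3 was higher in all 3 LEC groups than in BEC and lower in col LEC than in the other LEC groups. Dkk3, Fzd6 and Wnt5a were also higher in LEC than in BEC, and Fzd4 was lower. In these bulk samples, fewer cells that express a gene and less RNA per cell cannot be told apart.

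**Figure D2:**
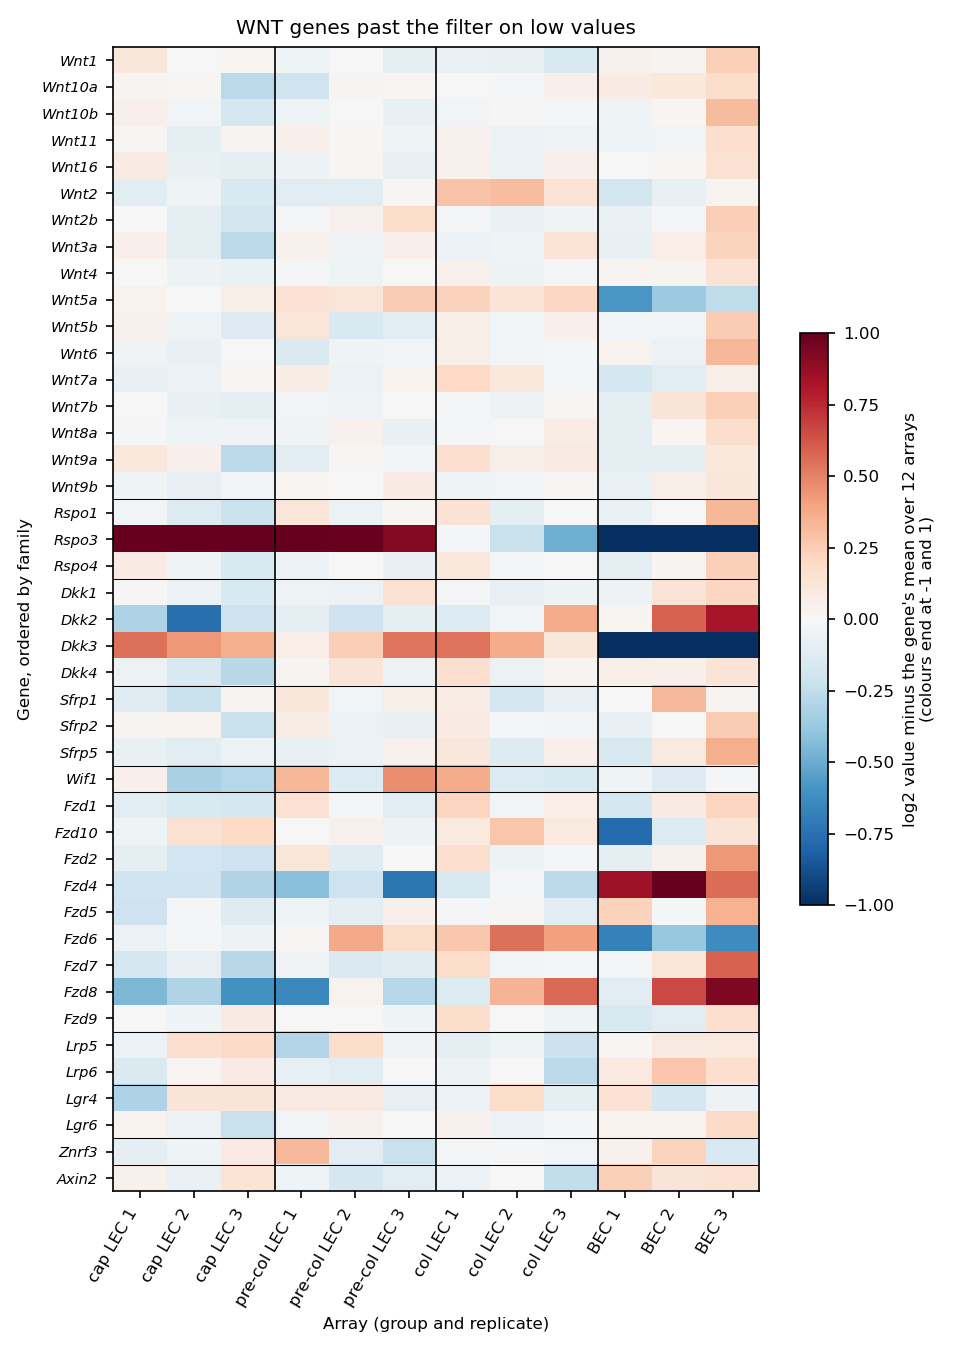
Value of each of the 43 tested WNT genes (rows, by role) on each of the 12 arrays (columns, by group), as the log2 difference from the gene's own mean over the arrays, with colours that end at -1 and 1. Rspo3 and Dkk3 were low on the BEC arrays, Fzd4 was high there, and BEC replicate 3 held the highest value for 25 of the genes.

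Against BEC, 10 of 43 WNT genes were called for the LEC mean (4 higher, 6 lower; 23.3%), where 22.6% of all genes were called (2370 higher, 2083 lower). The share was thus near the background. Cap against BEC gave 8 of 43 (4 higher, 4 lower), with a background of 20.7% (11.2% higher, 9.55% lower). Col against BEC gave 6 of 43 (5 higher, 1 lower), with 16.2% (8.31% higher, 7.93% lower). Groups did not overlap for 7, 13 and 11 of the 43 in these comparisons, where 17.8%, 37.8% and 30.3% of all genes did not. These comparisons share the BEC arrays. Without BEC replicate 3 the LEC mean gave 5 higher genes (Dkk3, Fzd10, Fzd6, Rspo3 and Wnt5a) and 1 lower (Fzd4), with 17.3% of all genes called. Without BEC replicate 2 it gave 4 higher (Dkk3, Fzd6, Rspo3 and Wnt5a) and 2 lower (Fzd4 and Fzd5), with 22.4%. Without BEC replicate 1 it gave those 4 higher and 6 lower (Dkk2, Fzd4, Fzd7, Fzd8, Lrp6 and Wnt7b), among 4333 genes called in all. The median log2 difference of the members was -0.086 against -0.015 for all genes tested, and 32 of the 43 lay below 0 (74.4%, against 52.5% of all genes). Without BEC replicate 3 the medians were -0.016 and 0.009, and 24 of the 43 lay below 0 (55.8%, against 47.7%).

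**Figure D3:**
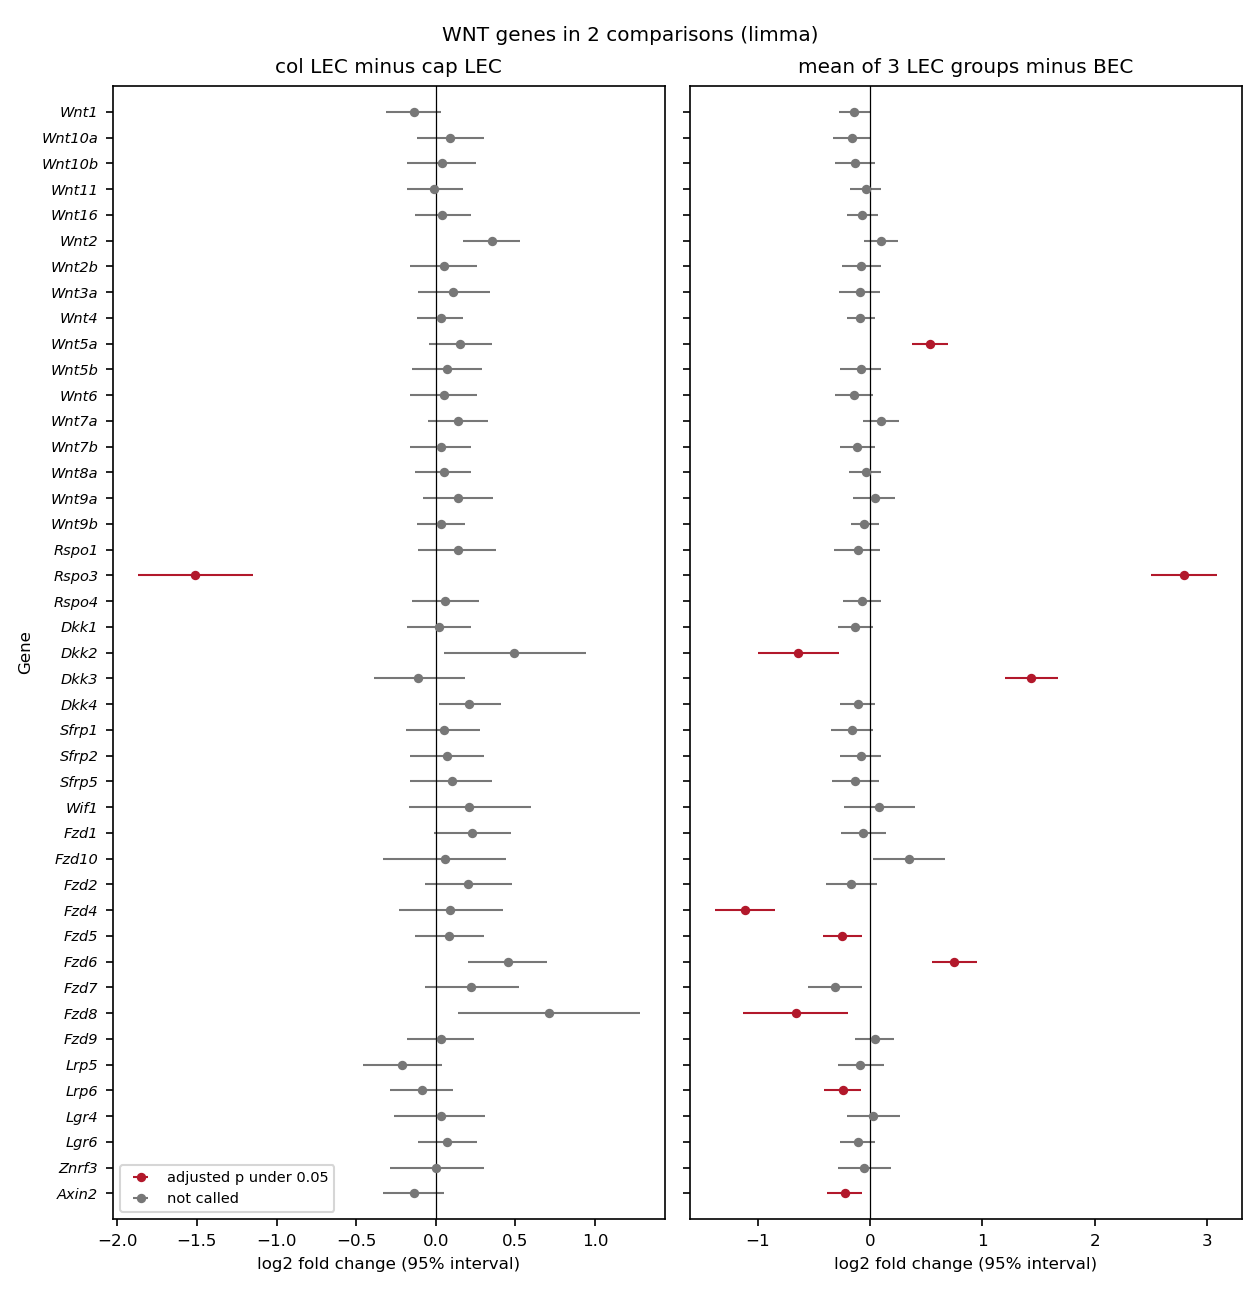
Log2 difference with its 95% interval for each of the 43 tested WNT genes (rows), in col LEC minus cap LEC and in the LEC mean minus BEC, with genes called at an adjusted p under 0.05 in red. In the first, Rspo3 at -1.51 was the gene called, and in the second 4 genes were called higher, up to Rspo3 at a fitted 2.8 (BEC below the array medians), and 6 lower, down to Fzd4 at -1.11.

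Promoter sequence was read for the members that have a window among the RefSeq promoters of assembly GRCm38.p6, 32 of the 50, with 36 windows of 250 bases before the annotated start. A set of 4 words that TCF and LEF factors are known to bind were searched on both strands, namely the word CTTTGAA, the word CTTTGAT, the word CTTTGTT and the word CTTTGTA. They occurred in 4 of the 36 windows (11.1%), in those of Dkk1, Fzd7, Wnt11 and Wnt5b, against 14.8% of 32841 windows of all genes. The GC box GGGCGG, searched on both strands, occurred in 24 of 36 (66.7%), against 32.7%. Median CG dinucleotides per window were 21.5 in members and 6.0 in all. The windows of Fzd4 and Wnt2 are shown because their genes differed between groups, that of Axin2 because the gene is a readout of the pathway, and that of Dkk1 because it held 2 of the TCF words. Each runs 5′ to 3′ in the direction of the gene, ending just before the start. Capitals mark TCF words in Dkk1 and GC boxes, some of them overlapping, in the other windows.
Fzd4 (GRCm38.p6, chr7:89404116-89404365, + strand): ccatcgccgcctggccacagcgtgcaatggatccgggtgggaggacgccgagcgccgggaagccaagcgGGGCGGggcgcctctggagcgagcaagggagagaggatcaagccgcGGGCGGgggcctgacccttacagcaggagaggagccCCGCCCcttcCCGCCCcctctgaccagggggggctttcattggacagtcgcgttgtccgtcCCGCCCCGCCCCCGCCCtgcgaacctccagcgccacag
Wnt2 (GRCm38.p6, chr6:18030446-18030695, - strand): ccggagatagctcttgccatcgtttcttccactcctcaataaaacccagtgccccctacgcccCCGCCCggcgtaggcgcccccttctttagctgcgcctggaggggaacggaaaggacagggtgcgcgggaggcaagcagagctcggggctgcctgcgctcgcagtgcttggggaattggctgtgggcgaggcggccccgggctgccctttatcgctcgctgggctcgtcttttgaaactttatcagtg
Axin2 (GRCm38.p6, chr11:108920099-108920348, + strand): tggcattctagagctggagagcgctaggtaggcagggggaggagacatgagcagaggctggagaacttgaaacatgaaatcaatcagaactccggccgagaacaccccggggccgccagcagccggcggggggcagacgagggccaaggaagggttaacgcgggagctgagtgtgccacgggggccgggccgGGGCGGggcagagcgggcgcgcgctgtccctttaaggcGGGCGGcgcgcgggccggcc
Dkk1 (GRCm38.p6, chr19:30549497-30549746, - strand): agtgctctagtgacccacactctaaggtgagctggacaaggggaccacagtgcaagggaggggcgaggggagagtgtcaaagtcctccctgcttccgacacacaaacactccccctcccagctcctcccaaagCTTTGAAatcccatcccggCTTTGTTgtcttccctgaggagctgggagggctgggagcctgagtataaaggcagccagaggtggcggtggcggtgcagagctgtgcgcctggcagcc
The Fzd4 window held 7 GC boxes and 25 CG dinucleotides, the Axin2 window 2 and 24, and the Wnt2 window 1 and 20. None of these 3 held a TCF word, which says only that these letters are not in these windows. A match is a description and not a site of binding.

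Among the 19 WNT ligand genes, 17 were tested. Levels were low and, apart from Wnt5a and Wnt2, were called different in no comparison. For 16 of the 19, the value lay above the array median on all 12 arrays, yet none reached the 95th percentile of the negative control rows (8.92 to 9.34) on any array. The median range over the arrays was 0.39, and 17 of the 19 spanned less than 0.5.

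Wnt5a encodes a ligand best known for signalling without beta-catenin, in cell polarity and movement. Its value was 7.32, 7.29 and 7.34 in cap LEC, 7.43, 7.4 and 7.54 in pre-col LEC, 7.51, 7.42 and 7.49 in col LEC, and 6.7, 6.92 and 7.03 in BEC. Every LEC array lay above every BEC array. The mean of the LEC groups exceeded BEC by 0.53 ± 0.07 (SE; 1.44-fold; limma adjusted p = 0.000164). Against BEC, cap LEC was higher by 0.43 and col LEC by 0.58 (limma adjusted p = 0.00414 and 0.000516). Within LEC, the cap arrays lay below the pre-col and col arrays without overlap, but the col minus cap difference of 0.15 did not pass (95% interval -0.04 to 0.35, limma adjusted p = 0.601).

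Wnt2 encodes a ligand that mostly acts through beta-catenin. Its value was 6.62, 6.69 and 6.58 in cap LEC, 6.62, 6.63 and 6.74 in pre-col LEC, 7.02, 7.04 and 6.87 in col LEC, and 6.55, 6.66 and 6.76 in BEC. All 3 col LEC arrays lay above all others, and the other groups overlapped. Col LEC exceeded BEC by 0.32 ± 0.08 (1.25-fold, limma adjusted p = 0.0178), a call lost without col LEC replicate 1 or 2, without BEC replicate 1 and when the fit held only the groups compared (adjusted p = 0.0655, 0.0747, 0.0575 and 0.0778). The col LEC differences from cap LEC (0.35, limma adjusted p = 0.0652) and from pre-col LEC (0.32, adjusted p = 0.248) did not pass, although the first was called with array weights (adjusted p = 0.0294) and without BEC replicate 3 (adjusted p = 0.0489).

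The other 15 ligands tested, Wnt1, Wnt2b, Wnt3a, Wnt4, Wnt5b, Wnt6, Wnt7a, Wnt7b, Wnt8a, Wnt9a, Wnt9b, Wnt10a, Wnt10b, Wnt11 and Wnt16, were called in none of the 6 comparisons. On BEC replicate 3, all 17 tested ligands lay above the mean of the other BEC arrays, by a median of 0.2, where the median over all genes tested was 0.06. For 13 of the 17 it was the highest of the 12 arrays. It was also the highest for 25.2% of all genes tested, 7 of 10 keratinocyte genes, 4 of 8 of muscle and cartilage and 3 of 6 of Schwann cells and melanocytes. Counts were 2 of 5 adipocyte, 2 of 8 macrophage, 2 of 7 immediate early, 1 of 9 fibroblast and 1 of 4 T cell genes. No gene of the pan-endothelial, lymphatic, blood endothelial or mural lists was highest there. The keratinocyte list mean was 6.9 on that array against 6.55 and 6.61 on the other BEC arrays. The part of other cell types in the WNT values was not tested. Wnt6, for instance, read 7.01 on that array, 6.71 and 6.62 on the other BEC arrays, and 6.53 to 6.73 on the LEC arrays. Wnt10a was the only one of these 15 whose BEC arrays (7.2, 7.23 and 7.3) all lay above every LEC array (6.85 to 7.17), and its LEC minus BEC difference of -0.16 did not pass (limma adjusted p = 0.179). The untested Wnt3 lay at 5.92 to 6.15 and Wnt8b at 5.31 to 5.61.

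Rspo3 encodes an R-spondin, a secreted amplifier that binds LGR receptors and ZNRF3 or RNF43. Its value was 8.71, 8.63 and 9.19 in cap LEC, 8.87, 8.56 and 8.49 in pre-col LEC, 7.56, 7.35 and 7.08 in col LEC, and 5.39, 5.62 and 5.4 in BEC. Cap and pre-col LEC overlapped, col LEC lay below both, and BEC lay lowest, below the array median on every array. Col LEC was lower than cap LEC by a log2 difference of -1.51 ± 0.17 (2.85-fold, limma adjusted p = 0.000516) and lower than pre-col LEC by -1.31 ± 0.17 (2.48-fold, adjusted p = 0.00677). The call against pre-col LEC was lost when only those groups were fitted (adjusted p = 0.0705). Pre-col and cap LEC differed by -0.2 (95% interval -0.57 to 0.16, limma adjusted p = 0.853).

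Rspo3 was the only WNT gene called among the LEC groups. It was 1 of 43 in the col against cap comparison, in which 1.64% of all genes tested were called (0.651% higher and 0.986% lower in col LEC). It was also 1 of 43 in col against pre-col, in which 0.3% were called (0.117% higher and 0.183% lower). Pre-col against cap gave 0 of 43, with 0.0% of all genes called by limma; at an unadjusted p under 0.05 it had 2 of 43 members and 6.39% of all genes. The col LEC arrays enter both of the first comparisons. Groups did not overlap for 10 of 43 WNT genes in col against cap, 5 of 43 in pre-col against cap and 5 of 43 in col against pre-col, where 20.8%, 14.2% and 11.3% of all genes tested did not. Rspo3 passed the filter on its 9 LEC arrays alone, so its differences from BEC are given as lower bounds, taken against the BEC arrays' own medians (mean 6.14) in place of the measured 5.47. On that scale it was at least 4.38-fold higher in the LEC mean, at least 6.51-fold in cap LEC and at least 2.28-fold in col LEC. These bounds were not tested. The limma calls of Rspo3 against BEC, also in the 12 fits that left out 1 array, used the measured BEC values. They rest on a gene that passed the filter only where it was high.

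Rspo1 and Rspo4, which belong to the same family, were flat. Rspo1 ranged from 6.86 to 7.41 and Rspo4 from 6.81 to 7.2, both with their highest value on BEC replicate 3, and neither was called in any comparison. Rspo2 lay at 5.53 to 5.85.

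**Figure D4:**
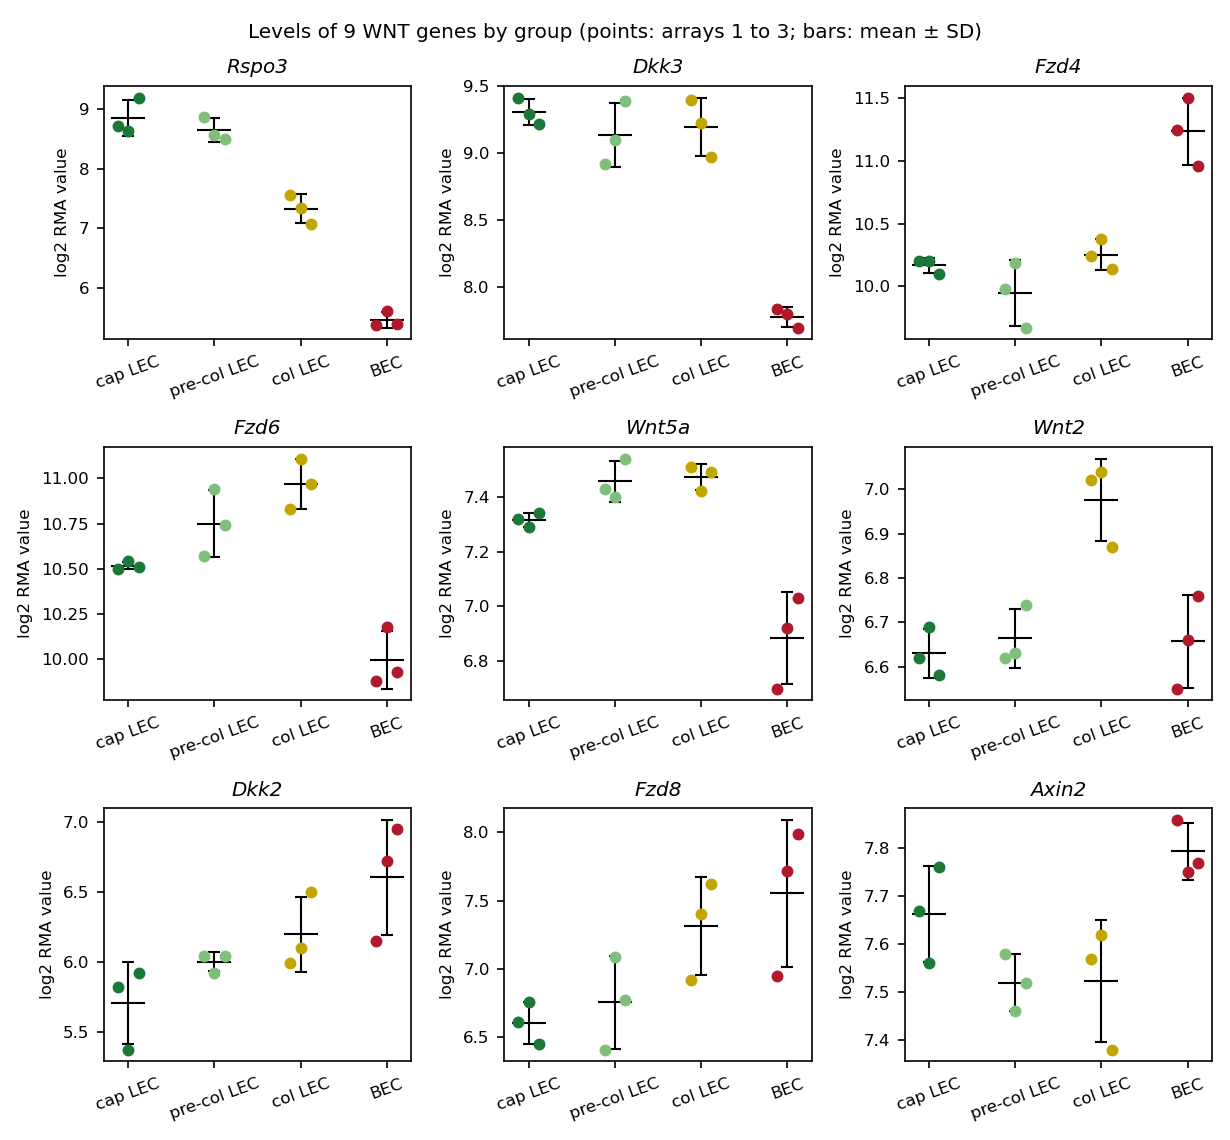
Log2 intensity (vertical axis, scaled separately for each gene and not starting at 0) of Rspo3, Dkk3, Fzd4, Fzd6, Wnt5a, Wnt2, Dkk2, Fzd8 and Axin2 in the 4 groups. Points are the 3 arrays of a group and bars the mean ± SD; the Rspo3 mean was 8.84 for cap LEC, 8.64 for pre-col LEC, 7.33 for col LEC and 5.47 for BEC, while Fzd8 and Dkk2 spread widely within BEC.

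The Frizzled family, the WNT receptors, included both genes that were higher and genes that were lower in LEC than in BEC. Of 10 Frizzled genes, 9 were tested, and against BEC the LEC mean was higher for Fzd6 and lower for Fzd4, Fzd5 and Fzd8. Fzd4 and Fzd6 lay above the 95th percentile of the negative controls on all 12 arrays. The Fzd4 difference and the Fzd6 difference were called in all 12 fits without an array, whereas those of Fzd5 and Fzd8 were not.

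Fzd4, whose promoter window is printed first among the sequences, is the receptor through which norrin and WNT ligands act in retinal and brain vessels. Its value was 10.2, 10.2 and 10.1 in cap LEC, 9.98, 10.19 and 9.67 in pre-col LEC, 10.24, 10.38 and 10.14 in col LEC, and 11.25, 11.5 and 10.96 in BEC. All BEC arrays lay above all LEC arrays, and the LEC groups overlapped. The LEC mean was lower than BEC by a log2 difference of -1.11 ± 0.12 (2.17-fold, limma adjusted p = 2.34e-05). BEC replicate 3 read lowest of the BEC arrays, and without it the difference was -1.25 (adjusted p = 3.55e-05). Cap LEC and col LEC lay -1.07 and -0.98 from BEC (limma adjusted p = 0.000221 and 0.000516).

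Fzd6 is a receptor known for planar polarity, including the orientation of hairs in skin. Its value was 10.5, 10.54 and 10.51 in cap LEC, 10.57, 10.94 and 10.74 in pre-col LEC, 10.83, 11.11 and 10.97 in col LEC, and 9.88, 10.18 and 9.93 in BEC. The order was BEC lowest, then cap LEC, then pre-col and col LEC, which overlapped each other. The LEC mean exceeded BEC by 0.75 ± 0.09 (1.68-fold, limma adjusted p = 6.65e-05), cap LEC by 0.53 (adjusted p = 0.00555) and col LEC by 0.98 (adjusted p = 5.54e-05). Col LEC exceeded cap LEC by 0.45 ± 0.11 without overlap, which did not pass (limma adjusted p = 0.0801). That difference was called in 4 of 8 other settings: the stricter filter on low values (adjusted p = 0.0342), the replicate number as a block (0.0244), cyclic loess (0.0473) and array weights (0.0156). It was not called with no filter, only the groups compared, the intensity trend or the mean of all rows. Of the 12 fits without an array, 0 called it (highest adjusted p = 0.258, without col LEC replicate 2).

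Fzd8, a receptor of the same family, varied widely within groups. It read 6.61, 6.76 and 6.45 in cap LEC, 6.41, 7.09 and 6.77 in pre-col LEC, 6.92, 7.4 and 7.62 in col LEC, and 6.95, 7.72 and 7.99 in BEC, so that BEC overlapped col LEC and pre-col LEC. The LEC mean was lower than BEC by -0.66 ± 0.21 (limma adjusted p = 0.0428) and cap LEC by -0.95 (adjusted p = 0.022). Without BEC replicate 3 the first was -0.44 (adjusted p = 0.256), and 9 of the 12 fits without an array lost the call, as did no filter and cyclic loess (adjusted p = 0.0601 and 0.062). The cap LEC call was lost without cap LEC replicate 1 or 3 and without BEC replicate 2 or 3 (adjusted p = 0.0525, 0.0849, 0.063 and 0.099). Fzd5, with 8.43, 8.18 and 8.55 in BEC and 7.99 to 8.25 in LEC, was lower in LEC by -0.25 ± 0.08 (limma adjusted p = 0.0457), a call that 10 of the 12 such fits lost (highest adjusted p = 0.228, without BEC replicate 3) and that was also lost with array weights (adjusted p = 0.307), the replicate block (0.0645), no filter (0.0553) and the intensity trend (0.0537). Cap LEC was lower than BEC by -0.3 (adjusted p = 0.0483), called in 1 of the 12 such fits and lost with the block (adjusted p = 0.0674).

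Fzd10 showed the widest spread in BEC among the Frizzleds not called, with 6.85, 7.48 and 7.75, against 7.57 to 7.9 in LEC. Its LEC minus BEC difference was 0.35 (limma adjusted p = 0.112) over all arrays and 0.54 (adjusted p = 0.0193) without BEC replicate 3. Fzd7 read 7.07, 7.2 and 7.67 in BEC and 6.8 to 7.26 in LEC, a difference of -0.31 that did not pass (adjusted p = 0.0652). Fzd1, Fzd2 and Fzd9 had differences of -0.06, -0.17 and 0.04 in the same comparison, and Fzd3 was low throughout (4.87 to 5.53).

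The co-receptors that WNT ligands need for beta-catenin signalling varied little. Lrp5 ranged from 10.2 to 10.68 with all groups overlapping, and its LEC minus BEC difference was -0.09 (95% interval -0.29 to 0.12, limma adjusted p = 0.525). Lrp6 read 9.41, 9.59 and 9.48 in BEC and 9.05 to 9.39 in LEC, without overlap. It was lower in LEC by -0.24 ± 0.08 (1.18-fold, limma adjusted p = 0.038), a call lost in 7 of the 12 fits without an array, with adjusted p up to 0.147 without BEC replicate 2, and with the replicate block (0.0506).

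R-spondins are received by the LGR proteins and act against the E3 ligases. Lgr4 ranged from 5.76 to 6.25 and Lgr6 from 6.75 to 7.17, and Znrf3, the E3 ligase gene with a row of its own, from 8.04 to 8.59. None of the 3 was called in any comparison, and Znrf3 differed by 0.0 between col and cap LEC (95% interval -0.29 to 0.3). Lgr5 lay at 5.23 to 5.47, and the row shared by Rnf43 at 6.21 to 6.57.

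Of the 4 Dickkopf genes, secreted proteins of which DKK1 is the classic blocker of LRP5 and LRP6, only Dkk3 and Dkk2 were called. Dkk3 is the divergent member, whose link to WNT signalling is less clear. It read 9.41, 9.29 and 9.22 in cap LEC, 8.92, 9.1 and 9.39 in pre-col LEC, 9.4, 9.23 and 8.97 in col LEC, and 7.84, 7.8 and 7.7 in BEC. The LEC groups overlapped and lay above BEC on every array, by 1.43 ± 0.11 in the mean (2.7-fold, limma adjusted p = 7.57e-07). Cap LEC exceeded BEC by 1.53 and col LEC by 1.42 (adjusted p = 3.63e-06 and 7.85e-06), and all 3 were called in each fit without an array.

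Dkk2 lay near the low end of the scale, above the array median on 4 of 12 arrays, which were replicates 2 and 3 of col LEC and of BEC. It read 5.82, 5.37 and 5.92 in cap LEC, 6.04, 5.92 and 6.04 in pre-col LEC, 5.99, 6.1 and 6.5 in col LEC, and 6.15, 6.72 and 6.95 in BEC. BEC lay above cap and pre-col LEC and overlapped col LEC. Dkk2 was lower in the LEC mean by a measured -0.64 ± 0.17 (limma adjusted p = 0.0151), although all cap and pre-col LEC arrays lay below their medians. In cap LEC it was lower by at least 1.45-fold against the cap LEC medians. The limma adjusted p of 0.0076 for cap LEC belongs to the measured difference and not to this bound. Without BEC replicate 3 the first was -0.47 (adjusted p = 0.113), and without BEC replicate 2 it had adjusted p = 0.0619. Dkk1 (6.33 to 6.69) and Dkk4 (5.77 to 6.22) were called in no comparison.

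The SFRPs and WIF1 bind WNT ligands directly, and none of the 4 tested was called in any comparison. Sfrp1 ranged from 6.03 to 6.58, Sfrp2 from 7.26 to 7.74 and Sfrp5 from 7.01 to 7.53, with BEC replicate 3 highest for the last pair. Wif1 read 7.03, 6.56 and 7.16 in pre-col LEC against 6.75, 6.37 and 6.41 in cap LEC, a difference of 0.41 that did not pass (limma adjusted p = 0.775). Sfrp4 lay at 5.58 to 5.79, and no row carried the symbol Sfrp3.

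Axin2 is a feedback inhibitor that beta-catenin signalling switches on in many tissues and is often used as its readout. It read 7.67, 7.56 and 7.76 in cap LEC, 7.58, 7.46 and 7.52 in pre-col LEC, 7.57, 7.62 and 7.38 in col LEC, and 7.86, 7.75 and 7.77 in BEC. BEC overlapped cap LEC. The LEC mean was lower by -0.22 ± 0.07 (1.17-fold, limma adjusted p = 0.0389), a call that 8 of the 12 fits without an array lost (highest adjusted p = 0.124, without BEC replicate 1). It was also lost with the block, cyclic loess and array weights (adjusted p = 0.0539, 0.0547 and 0.0702). Among the LEC groups the largest difference was -0.14.

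The rest of the pathway was read from 8 lists with 68 genes, of which 61 were tested. None of the 61 was called among the LEC groups, at backgrounds of 1.64%, 0.0% and 0.3%. For the LEC mean against BEC, 12 were called higher and 8 lower (32.8%, background 22.6%), with a median of 0.03. The lists were chosen with earlier results of these data known, so this share is a description and not a test of the pathway. The same 22.6% is the background for each list below in this comparison. Of 4 genes for ligand secretion and removal, Wls, which carries WNT proteins to the cell surface, was higher by 1.11 ± 0.10 (limma adjusted p = 4.25e-06). It lay at 9.33 to 9.75 on the LEC arrays and 8.41 to 8.53 on the BEC arrays.

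Of 3 tested partners that norrin and WNT7 use in blood endothelium, Adgra2 and Reck, which form a co-receptor for WNT7 in brain vessels, were higher in LEC by 1.73 ± 0.09 and 0.53 ± 0.13 (limma adjusted p = 2.74e-08 and 0.0085). Adgra2 lay at 10.36 to 10.8 in LEC and 8.73 to 8.94 in BEC. Reck was called against BEC in col LEC and not in cap LEC. Of 6 further receptors, Ror1, Ror2 and Ptk7, which take part in signalling without beta-catenin, were lower by -1.14, -0.3 and -0.39 (adjusted p = 0.00599, 0.0193 and 0.0409). Without BEC replicate 3 the adjusted p was 0.0861 for Ror2 and 0.175 for Ptk7. In cap LEC against BEC, 1 of these 6 was called higher and 3 lower, where 20.7% of all genes tested were called. The higher was the DKK co-receptor gene Kremen1 by 0.41 (limma adjusted p = 0.0219, and 0.0937 without cap LEC replicate 3). Ror1, Ror2 and Kremen2 were lower, the last by -0.25 (limma adjusted p = 0.0487, and 0.175 without cap LEC replicate 3). In col LEC against BEC, 0 of 6 were called by limma, where 16.2% of all genes tested were, and the median of the 6 was -0.2. Ror1 read 6.59, 7.85 and 6.32 in BEC and 5.4 to 6.4 in LEC, and its difference was -0.67 without BEC replicate 2. All cap and pre-col LEC arrays and col LEC replicate 2 lay below their medians for Ror1. It thus passed the filter only through arrays where it was high. The -1.14 and its adjusted p of 0.00599 belong to the measured values, as does the Ror1 call in cap LEC. No bound against the array medians was taken for Ror1. Of 5 tested secreted modulators, Igfbp4 and Cthrc1 were higher in the LEC mean by 0.64 and 0.45 (limma adjusted p = 0.00304 and 0.0066). Against BEC, Igfbp4 was called in cap LEC and not in col LEC, and Cthrc1 in col LEC and not in cap LEC.

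Inside the cell, 4 of 16 tested cytoplasmic genes were called for the LEC mean against BEC, near the 22.6% of all genes tested. Nkd1, an inhibitor that binds Dishevelled, was higher in LEC by 0.99 ± 0.11 (limma adjusted p = 3.63e-05), the kinase gene Csnk1e by 0.39 and the scaffold gene Apc by 0.29 (adjusted p = 0.128 without BEC replicate 2), while Tnks2, a tankyrase that destabilises axin, was lower by -0.22. Of 11 nuclear effectors, the co-repressor Tle1 was higher by 0.57 (adjusted p = 0.000485) and Lef1, a DNA-binding partner of beta-catenin, was lower by -0.37 (adjusted p = 0.0154, and 0.0874 without BEC replicate 3).

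Of 6 tested genes listed as beta-catenin targets, Nkd1 was higher and Sox17, Tnfrsf19 and Lef1 were lower in LEC, with a list median of -0.23. Sox17, a transcription factor also known as a marker of arteries, lay at 6.21 to 6.74 in LEC and at 9.12 to 9.39 in BEC, a difference of -2.88 ± 0.10 (7.38-fold, limma adjusted p = 1.35e-09). Tnfrsf19 was lower by -0.35 (adjusted p = 0.000646). Nkd1 and Sox17 thus lay on opposite sides within the list.

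Of 13 genes for planar polarity and other signalling without beta-catenin, Celsr1, a cadherin of planar polarity, was higher by 2.05 ± 0.10 (limma adjusted p = 2.29e-08), Nfatc1, a calcium-controlled transcription factor, by 1.3 (adjusted p = 3.72e-08) and Daam1, a formin, by 0.6 (adjusted p = 0.000175). Daam2, a related formin, was lower by -0.62 (adjusted p = 0.000155). Between col and cap LEC, Celsr1 differed by 0.1 (95% interval -0.17 to 0.38).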

How the data were processed

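Per the labels' protocols, 500 pg of total RNA from each of the 12 samples was amplified to biotin-labelled sense-strand cDNA. The deposited values are log2 intensities, and the submitters' processing notes name RMA as the authors' method. The scale was read from the values. Neither the software nor the annotation behind them is stated in the sources used here. RMA compresses weak signals and hides a change in total RNA per cell. For arrays, the number of samples and not a depth limits the precision. Each gene was represented by the brightest row naming it alone, with symbols updated by Entrez ID from RefSeq (GRCm38.p6, names only), and the 1534 rows naming several genes were not used. Genes passing the filter were fitted with limma 3.58.1 in R 4.3.3 (lmFit and eBayes, all 12 arrays in 4 groups, no covariate) for 6 comparisons, two-sided, and p-values were adjusted with Benjamini-Hochberg over the 19675 genes tested. Calls were made below an adjusted p of 0.05, and the fit was tested on simulated data. The WNT genes and lists were chosen with earlier results of these data known. Every WNT gene was accounted for, and from the other pathway lists up to 4 called genes per list and comparison with the smallest adjusted p were named. Alternatives changed the filter, normalisation, arrays fitted, weights, variance prior, block and row per gene, and left out each array in turn. Promoter windows came from a RefSeq table, and protein sequences were not used here.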

Additional observations from a re-analysis of the deposited data

Results flagged for a closer look

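The difference of Rspo3 from BEC was not of one size along the lymphatic tree. Against BEC, where the row lay below the array medians, cap LEC was at least 6.51-fold and col LEC at least 2.28-fold higher. The difference between them, measured on both sides and tested as col LEC minus cap LEC, was -1.51 ± 0.17 (limma adjusted p = 0.000516). The 3 col LEC arrays (7.56, 7.35 and 7.08) lay below the 3 cap LEC arrays (8.71, 8.63 and 9.19).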

How the results depend on the processing

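Of 26 calls of WNT genes over the 6 comparisons, 17 were kept in every alternative that could test the gene (18 to 20 per call), 9 were lost in at least 1, and 0 reversed. Among the 17 were the Rspo3 calls against BEC and the Dkk2 call of cap LEC against BEC. In these the lower group lay below its array medians, and the gene passed the filter only through arrays where it was high. That such calls were kept is thus not separate support for them. Array weights gave 792 genes called of all tested in col against cap LEC (322 in the main setting), 28 in pre-col against cap (0) and 153 in col against pre-col (59), and called 4 WNT genes in the first. The block by replicate number and cyclic loess each called 2 WNT genes there, with 374 and 300 genes called of all tested. In pre-col against cap the counts over all genes were 3 with the block, 13 with loess, 12 with the filter at the 95th percentile of the negative controls and 1 with the intensity trend. Fitting only the groups compared left 5 genes and 0 WNT genes called in col against pre-col. The stricter filter tested 4388 genes and left out Rspo3, so that col against pre-col had 0 WNT genes called. The WNT genes it tested were Dkk3, Fzd4, Fzd6, Lrp5 and Lrp6. Of the 4388 genes it called 1884, 1773 and 1451 for the LEC mean, cap LEC and col LEC against BEC, with 4, 3 and 4 WNT genes. Leaving out each array in turn gave 180 to 351 genes and 1 to 2 WNT genes for col against cap, 0 to 1 genes for pre-col against cap, and 24 to 63 for col against pre-col. For the LEC mean against BEC it gave 6 to 10 WNT genes, with 3401 to 4410 genes called of all tested. Deviations of same-numbered arrays correlated with r from -0.0935 to 0.208, above 0 in 15 of 18 pairs and above 0.1 in 7, against 10 and 2 of 36 pairs of different number (r from -0.143 to 0.176). Among the LEC groups all 9 same-numbered pairs were above 0, 5 of them above 0.1, and each array correlated best with its own number in 18 of 18 comparisons, against 28 of 36 with BEC included. The deviations of a group's 3 arrays sum to 0, so correlations of same and different number depend on each other and are not separate evidence. Whether the numbers mark a shared source was not tested. The labels do not state one, and no pairing was assumed. With the replicate block, 374 genes were called in col against cap LEC, and 7 WNT genes among 4456 genes called for the LEC mean against BEC. Fitting only the groups compared has no separate fit for the LEC mean, which uses all groups. The mean of all rows changed no WNT value, since each had 1 row. The array medians were 6.06 to 6.17. The WNT ligand values (5.31 to 7.93) all lay below the 95th percentile of the negative control rows (8.92 to 9.34), so a difference there can be compressed.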
